A study of Mus musculus with 8 samples.

Results

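The lysyl oxidase family of the mouse comprises 5 genes, Lox, Loxl1, Loxl2, Loxl3 and Loxl4, and all 5 were found by gene symbol among the 24346 genes measured in sorted stromal cells of the large intestine. RNA was sequenced from 8 mice aged 12 weeks. In the 4 cKO mice both Il10ra alleles were floxed and Cre recombinase was expressed under Pdgfra control (Pdgfra cre; Il10ra flox/flox). The 4 mice labelled WT carried the same floxed alleles (Il10ra flox/flox) without Cre, so that an effect of Cre itself and one of losing the receptor cannot be told apart. Stromal cells had been sorted as living, podoplanin-positive cells without CD45, CD31 or EpCAM, from whole colons, and 4 libraries stand for the 4 mice of each group. Cre driven by Pdgfra acts in cells that express or have expressed that receptor, which include most fibroblasts of the gut wall. The libraries listed between 15815 and 16323 genes above 0, and their log2 levels were correlated at 0.965 to 0.989 between any pair of libraries. The title of the series names the interleukin-10 receptor of fibroblasts and its effect on type I interferon signalling as the subject, and the comparison of cKO with WT mice is the one that the design offers.

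Lysyl oxidases are secreted, copper-dependent amine oxidases that turn lysine residues of collagens and of elastin into aldehydes, which then react with neighbouring residues to form the covalent cross-links of the matrix. Each carries a quinone cofactor made from its own lysine and tyrosine residues and a copper ion held by histidines in a conserved catalytic domain at the C-terminal end. Lox and Loxl1 have an N-terminal propeptide and form one branch, whereas Loxl2, Loxl3 and Loxl4 carry scavenger receptor cysteine-rich domains in its place. In the gut wall, as in other soft tissues, fibroblasts are a main source of these enzymes.

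The coding sequence round the copper site shows what 4 of the 5 members share and where they can be told apart; that of Lox is not shown. The stretches of 63 bases below were read from the GENCODE M21 transcripts (GRCm38, the build named mm10 by the submitters) and run 5′ to 3′ on the coding strand. Capitals mark the 3 histidine codons of the copper-binding motif. Each stretch is spliced across the junction of adjoining exons, namely exons 3 and 4 of 7 in Loxl1, 10 and 11 of 14 in Loxl2 and Loxl3, and 11 and 12 of 15 in Loxl4.
Loxl1, chr9:58293696-58294387, minus strand: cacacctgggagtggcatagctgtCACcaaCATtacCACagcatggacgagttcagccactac
Loxl2, chr14:69682310-69689061, plus strand: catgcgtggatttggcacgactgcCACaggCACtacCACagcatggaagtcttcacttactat
Loxl3, chr6:83049989-83050149, plus strand: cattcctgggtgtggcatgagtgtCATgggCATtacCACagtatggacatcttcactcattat
Loxl4, chr19:42598783-42599905, minus strand: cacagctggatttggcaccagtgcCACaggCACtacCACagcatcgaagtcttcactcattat

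The motif of spaced histidine codons occurred 1 time in the coding sequence of each of these 4 genes. Translated in full, Loxl2, Loxl3 and Loxl4 were 55.5% to 56.7% identical to each other over their aligned residues, Lox and Loxl1 were 51.5% identical, and identity between the branches was 33.2% to 39.4%. No stretch of 50 bases was shared between the main transcripts of any of the 10 pairs, so an exact match of that length to these transcripts points to a single member. Other annotated transcripts were not compared. Whether fragments were assigned to single members in these libraries was not tested.

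The genes lie apart in the genome. Lox (ENSMUSG00000024529.14) occupies chromosome 18, 52516067 to 52529867, Loxl1 (ENSMUSG00000032334.10) chromosome 9, 58287738 to 58313186, Loxl2 (ENSMUSG00000034205.16) chromosome 14, 69609068 to 69695834, Loxl3 (ENSMUSG00000000693.10) chromosome 6, 83034173 to 83052562, and Loxl4 (ENSMUSG00000025185.14) chromosome 19, 42593982 to 42612813. Some of these loci overlap other genes, and whether fragments were assigned by strand is not given in the sources used here. The 3′ end of Loxl3 overlaps Htra2 on the opposite strand, a protease gene with 20.7 to 23.3 FPKM in cKO and 19.9 to 22.6 FPKM in WT libraries. Lox has the annotated antisense gene AC161119.1 and Loxl2 the antisense gene Gm27177, and the values of Lox, Loxl2 and Loxl3 are uncertain to the extent that such fragments were counted with them.

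All 5 genes were transcribed in every library, in nearly the same order. Values are FPKM, which divide fragments by the length of the transcript and the depth of the library, so that levels can be set side by side between genes. Loxl1 was the most abundant member in 8 of 8 libraries, Loxl2 came next in 8 of 8, and Loxl4 was lowest in 8 of 8. Loxl1 ranked 549 and Loxl2 994 by mean level among the 11506 genes that averaged 1 FPKM or more, Loxl3 2603, Lox 3010 and Loxl4 6289. Loxl3 stood above Lox in 7 of 8 libraries, cKO replicate 2 being the exception. In the cKO libraries the ranges of this neighbouring pair overlapped (23.8 to 29.4 FPKM for Loxl3 and 17.1 to 27.9 FPKM for Lox), so that their levels did not differ beyond the spread. In the WT libraries the lowest Loxl3 value, 28.6 FPKM, lay just above the highest Lox value, 28.2 FPKM.

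**Figure D1:**
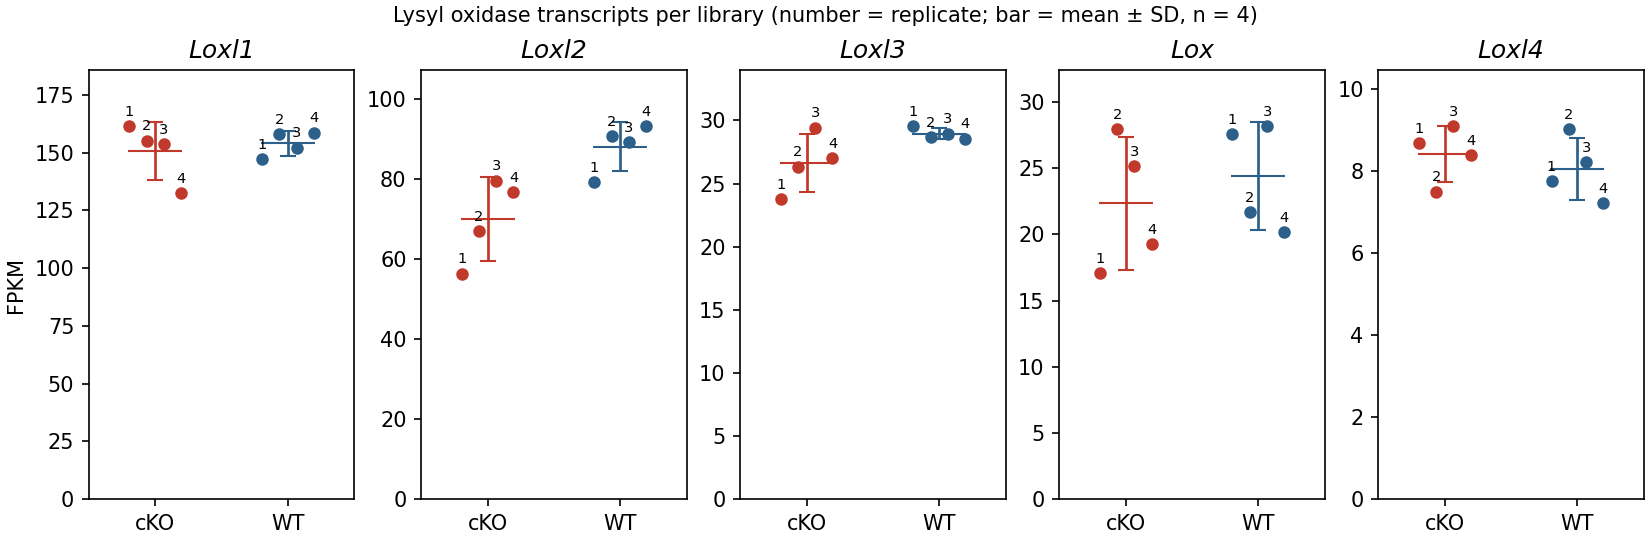
FPKM of each lysyl oxidase gene (vertical axes start at 0 and differ between panels) in the 4 cKO and 4 WT libraries; numbers are replicates, and horizontal marks with bars are the mean ± SD. The ranges overlap in all 5 panels; for Loxl2 3 of 4 cKO points, at 56.4 to 76.6 FPKM, lie below the lowest WT point at 79.2, and for Loxl3 3 of 4, at 23.8 to 27.0 FPKM, lie below the lowest WT point at 28.6.

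Loxl2, a secreted oxidase that acts on the type IV collagen of basement membranes and on fibrillar collagens, showed the largest difference of the 5, a mean 20.6% lower in cKO than in WT. Its level was 56.4, 67.0, 79.6 and 76.6 FPKM in cKO replicates 1 to 4, against 79.2, 90.7, 89.3 and 93.2 FPKM in WT replicates 1 to 4. The groups overlapped only in that cKO replicate 3 lay just above WT replicate 1, and cKO replicate 1 was the lowest library. The means were 69.9 ± 10.5 FPKM in cKO and 88.1 ± 6.15 FPKM in WT (SD, n = 4 each). On the log2(FPKM + 1) scale the difference was -0.34 (SE 0.10, 95% interval -0.57 to -0.11), with an unadjusted p of 0.00857 in limma and an adjusted p of 0.897 over all genes, so Loxl2 did not pass the threshold. The two-sided exact permutation p of its FPKM was 0.0571, where 4 against 4 libraries allow no p below 0.0286. By unadjusted p it ranked 94 among the 11506 genes tested.

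Loxl3, a collagen oxidase of the same branch needed for palate and spine development in mice, was at 23.8, 26.3, 29.4 and 27.0 FPKM in cKO replicates 1 to 4, against 29.5, 28.7, 28.9 and 28.6 FPKM in WT replicates 1 to 4. The WT libraries lay within 1 FPKM of each other, whereas 3 of 4 cKO libraries were below all of them. The means were 26.6 ± 2.32 FPKM in cKO and 28.9 ± 0.439 FPKM in WT (SD, n = 4 each). The log2 difference of -0.12 (SE 0.06, 95% interval -0.26 to 0.03) did not pass (limma adjusted p = 0.897, unadjusted p = 0.0980; exact permutation p of the FPKM = 0.114).

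Loxl4, the remaining scavenger-domain member and the lowest, was the only one with a higher mean in cKO. It had 8.68, 7.49, 9.09 and 8.38 FPKM in cKO replicates 1 to 4, against 7.75, 9.01, 8.22 and 7.22 FPKM in WT replicates 1 to 4. The values were interleaved, with means of 8.41 ± 0.676 FPKM in cKO and 8.05 ± 0.759 FPKM in WT (SD, n = 4 each). The log2 difference was 0.06 (SE 0.08, 95% interval -0.13 to 0.24; limma adjusted p = 0.969), and 0.01 without WT replicate 4.

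Loxl1, which binds elastic fibres and is needed to renew them in adult mice, was steadier within each group than Loxl2, the next in level. Loxl1 had 161, 155, 154 and 132 FPKM in cKO replicates 1 to 4, against 147, 158, 152 and 159 FPKM in WT replicates 1 to 4. The highest and the lowest library were both cKO, and the means of 150.7 ± 12.6 FPKM in cKO and 153.9 ± 5.46 FPKM in WT (SD, n = 4 each) differed by less than either SD. The log2 difference was -0.03 (SE 0.06, 95% interval -0.18 to 0.11; limma adjusted p = 0.977). Its sign turned with quantile normalization (0.01), with each library rescaled to the same sum (0.00105) and without cKO replicate 4 (0.03), so no direction is given.

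Lox, the founding member that cross-links fibrillar collagen and elastin and without which newborn mice die of ruptured vessels, varied most between libraries of 1 group. It was at 17.1, 27.9, 25.1 and 19.2 FPKM in cKO replicates 1 to 4, against 27.6, 21.7, 28.2 and 20.2 FPKM in WT replicates 1 to 4. Both groups held libraries near 20 and near 28 FPKM, and the coefficient of variation was 22.6% in cKO and 16.7% in WT, against 8.35% and 3.54% for Loxl1. The means were 22.3 ± 5.04 FPKM in cKO and 24.4 ± 4.07 FPKM in WT (SD, n = 4 each), and the log2 difference of -0.13 (SE 0.16, 95% interval -0.49 to 0.23) did not pass (limma adjusted p = 0.957). Leaving out cKO replicate 1 gave -0.02 and leaving out cKO replicate 2 gave -0.24; the other 6 libraries, left out singly, gave values between these. The interval spans a cKO level of 0.711 to 1.17 times that of WT on this scale, so a moderate change of Lox in either direction was not detectable with these libraries.

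Of the 5 members 0 were called at an adjusted p under 0.05 by limma, the test run across all genes, where 1 of 11506 genes was called (0.00869%; Mir5098, a microRNA gene outside the family, named after its values were seen). At an unadjusted p under 0.05, 1 member, Loxl2, was lower, against 3.03% of all tested genes that were lower and 5.41% in either direction at that level. None of the 5 had cKO libraries that were all below or all above the WT libraries, as 1.9% and 1.36% of the tested genes had. The median log2 difference was -0.12 over the family and -0.007 over all tested genes. The family median was -0.07 without cKO replicate 1, cKO replicate 4 or WT replicate 1, and -0.06 without WT replicate 3. In bulk RNA, fewer cells of a type and less RNA per cell cannot be told apart.

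Libraries differed in what else they held, and cKO replicate 1, the library with the least Loxl2, stood apart. It had the highest summed markers of all 8 libraries for epithelium (973 FPKM), myeloid cells (168 FPKM), lymphoid cells (163 FPKM), blood endothelium (22.3 FPKM), lymphatic endothelium (15.1 FPKM), smooth muscle and pericytes (85.7 FPKM) and enteric glia (2.28 FPKM). The lymphoid sum was mostly Jchain (136 FPKM). Cd3e, Mzb1 and Nkg7 were also highest in this library, but Cd79a, Cd79b and Ms4a1 were highest in cKO replicate 4 and Cd3g in WT replicate 4. The 12 epithelial markers, led by Krt8, Car1 and Guca2a, summed to 973, 505, 133 and 48.3 FPKM in cKO replicates 1 to 4, against 57.4 to 125 FPKM in the WT libraries. All 12 had a higher mean in cKO and none was at 0 throughout. The cKO libraries with the most epithelial RNA, replicates 1 and 2, were those with the least Loxl2 and the least Loxl3. With the mean level of these markers as a covariate, a setting added after the data were seen, the log2 difference of Loxl2 was -0.21 (SE 0.07, limma adjusted p = 0.629). Without cKO replicate 1 it was -0.24 (SE 0.08, adjusted p = 0.633).

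The fibroblast markers did not follow the order of the epithelial markers. Their sum went with the Loxl2 level in some libraries and against it in others. It was lowest of all 8 libraries in cKO replicate 1, which had the least Loxl2. It was highest in cKO replicate 3, which had the most Loxl2 of the cKO libraries. In the other direction, cKO replicate 2 had a higher sum than cKO replicate 4 but less Loxl2 (67.0 against 76.6 FPKM). WT replicate 4 had the lowest sum of the WT libraries and the most Loxl2 of all 8 (93.2 FPKM). A relation of the sum to Loxl2 was not tested. Pdgfra, Pdpn, Dcn, Lum, Col1a1 and Col6a1 summed to 11708, 13143, 13548 and 12231 FPKM in cKO replicates 1 to 4. The sums were between 12461 and 13114 FPKM in WT libraries. Each library was scaled by the geometric mean of these 6 markers, also a setting added after the data were seen. The log2 difference of Loxl2 was then -0.32 (SE 0.09, limma adjusted p = 1.00; exact permutation p of the log2 level relative to the markers = 0.0571). Loxl3 relative to the markers was lower in all 4 cKO libraries (-5.08 to -4.96 on the log2 scale) than in all 4 WT libraries (-4.93 to -4.92), with a difference of -0.10. The exact permutation p was 0.0286, which is the lowest that 4 against 4 libraries can give, and is not adjusted for having examined 5 members. Scaled this way, Loxl3 did not pass in limma (unadjusted p = 0.128, adjusted p = 1.00). The share of all tested genes whose groups separate under this scaling was not examined. With the epithelium covariate the log2 difference of Loxl3 was -0.06 (unadjusted p = 0.360, adjusted p = 0.929), and without cKO replicate 1 it was -0.07 (unadjusted p = 0.256, adjusted p = 0.908). The part that admixed cells had in the differences of Loxl2 and Loxl3 was not tested beyond these values.

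**Figure D2:**
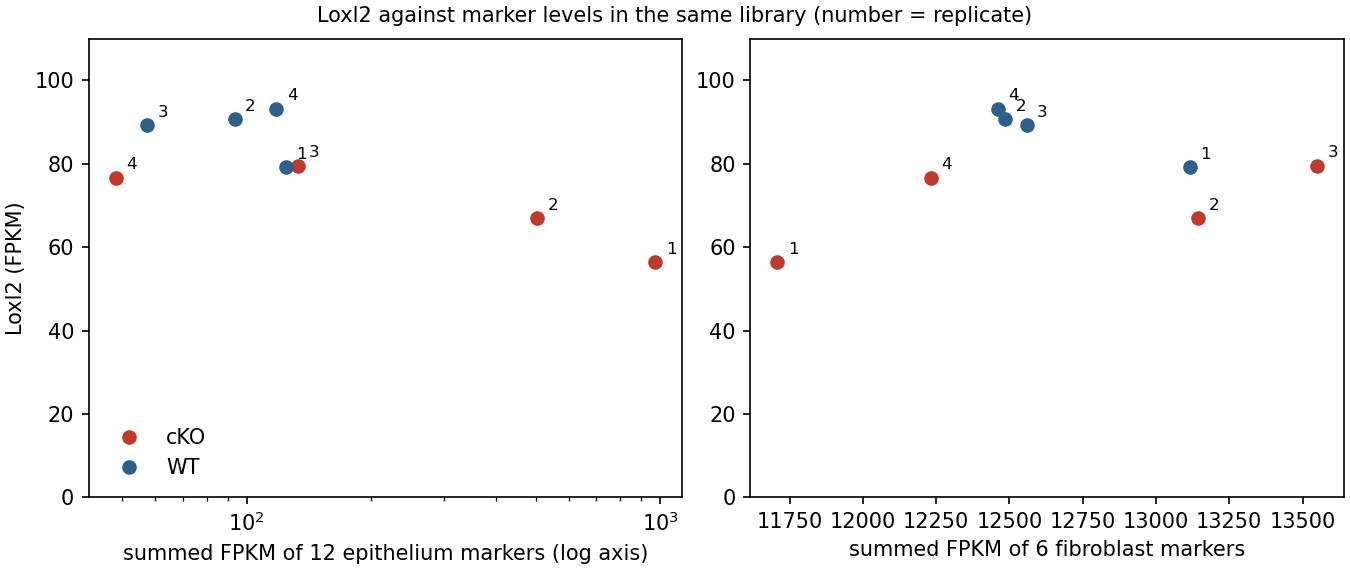
Loxl2 (FPKM, vertical axis) in each library against the summed FPKM of 12 epithelium markers (left, log axis) and of 6 fibroblast markers (right); numbers are replicates. The cKO replicates 1 and 2, at 973 and 505 FPKM of epithelial markers, have the least Loxl2, while cKO replicate 4, with 48.3 FPKM, also lies below all 4 WT points.

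Markers of the other cell types were present as well. In cKO replicate 1 the plasma cell gene Jchain was at 136 FPKM and the myeloid gene Lyz2 at 76.7 FPKM, both above Loxl2 in that library, while the other 7 libraries had at most 53.7 FPKM of Jchain and at most 49.1 FPKM of Lyz2. The sorting targets Epcam, Ptprc (CD45) and Pecam1 (CD31) reached at most 34.7, 4.15 and 2.37 FPKM in cKO and 4.02, 3.98 and 0.990 FPKM in WT libraries. The sums over 7 blood endothelial markers (9.35 to 22.3 FPKM in cKO, 5.06 to 9.10 FPKM in WT) and 5 lymphatic endothelial markers (6.10 to 15.1 and 0.674 to 5.45 FPKM) were higher in every cKO library than in every WT library, at low levels. Most of each cKO lymphatic sum was Ccl21a, so the separation of these sums rests largely on this gene. Ccl21a was at 4.81 to 11.9 FPKM in cKO, 4.49 FPKM in WT replicate 3 and at most 0.0017 FPKM in the remaining WT libraries. Mmrn1 and Flt4 also separated the groups, whereas Prox1 and Lyve1 overlapped. The sums over 9 smooth muscle and pericyte markers were 43.1 to 85.7 FPKM in cKO and 51.0 to 59.4 FPKM in WT. Sums were 82.3 to 168 FPKM in cKO and 74.1 to 104 FPKM in WT for 10 myeloid markers, 33.5 to 163 and 41.5 to 78.0 FPKM for 8 lymphoid markers, and 1.51 to 2.28 and 0.659 to 1.56 FPKM for 4 markers of enteric glia. No marker in these lists was at 0 in all libraries. Markers of adventitial fibroblasts had lower mean log2 levels in all 4 cKO libraries (8.36 to 8.45) than in all 4 WT libraries (8.50 to 8.61, exact permutation p = 0.0286). That p is not adjusted for the number of marker lists examined. Their summed FPKM overlapped (2868 to 3199 in cKO, 3105 to 3313 in WT). Of the 6 markers 2 had a higher mean in cKO, Cd81 (log2 difference 0.003) and Ly6c1 (0.015). Pi16 (-0.34), Dpp4 (-0.32), Ackr4 (-0.22) and Cd34 (-0.05) were lower, and for Dpp4 all 4 cKO libraries lay below all 4 WT libraries. None of the 6 passed over all genes (limma adjusted p of 0.897 or more). The mean log2 levels of PDGFRA-high subepithelial fibroblast markers overlapped (3.34 to 3.86 in cKO and 3.36 to 3.71 in WT). The share of these cell types in the lysyl oxidase values was not tested. Il10ra itself was low in both groups, at 0.273 to 0.636 FPKM in cKO and 0.403 to 0.842 FPKM in WT (exact permutation p = 0.4), and a value summed over the whole gene does not check the deletion.

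The make-up of the family was read as the share of each member in their summed FPKM. The sum was 267, 284, 297 and 264 FPKM in cKO replicates 1 to 4, against 291, 308, 307 and 308 FPKM in WT replicates 1 to 4. Loxl2 made up 25.1% ± 3.51 of it in cKO and 29.0% ± 1.3 in WT (SD, n = 4 each), with 3 of 4 cKO libraries below the lowest WT library. Loxl1 made up 54.3% ± 4.48 in cKO and 50.7% ± 0.870 in WT. The WT libraries were alike in these shares, while among the cKO libraries the share of Loxl1 ran from 50.2% to 60.4%. The shares of Loxl3 (9.58% ± 0.609 in cKO and 9.54% ± 0.410 in WT) and Lox (8.0% ± 1.49 and 8.06% ± 1.48) were close in the 2 groups, and Loxl4 made up 3.03% ± 0.272 and 2.65% ± 0.237.

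**Figure D3:**
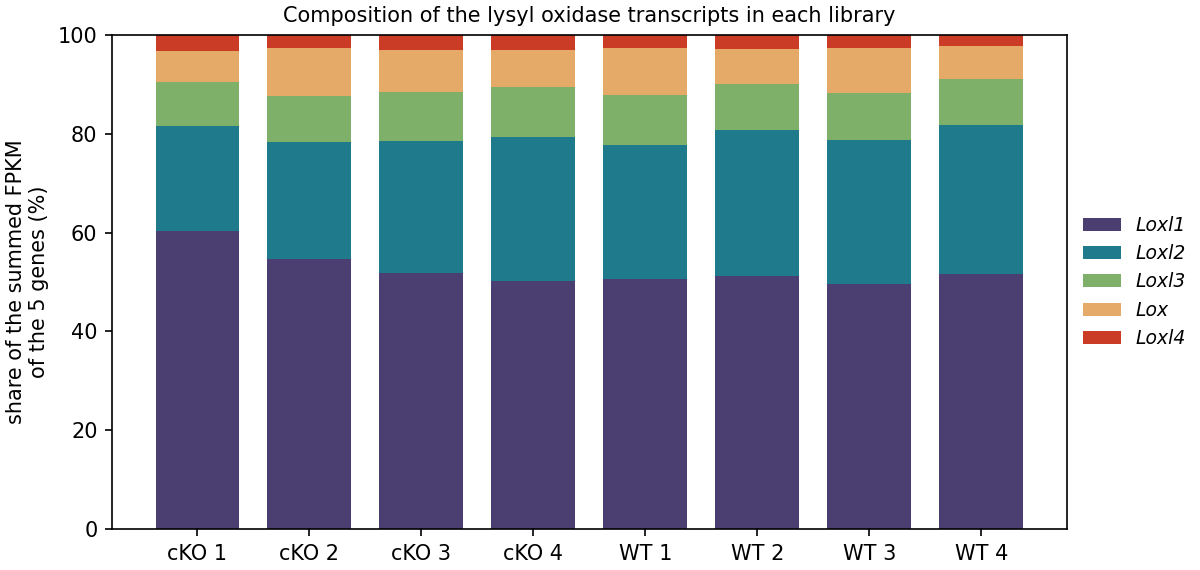
Share of each lysyl oxidase gene in the summed FPKM of the 5 genes (vertical axis, %), 1 stacked bar per library, cKO replicates on the left and WT replicates on the right. Loxl1 takes 60.4% in cKO replicate 1 and 49.6% to 51.5% in the WT libraries, and the Loxl2 band is narrower in 3 cKO bars than in any WT bar.

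Whether the members changed unequally was tested with their log2 ratios within a library. A ratio of plain FPKM does not depend on how that library was scaled. The tested log2 ratio, with 1 FPKM added to each gene, does in part, most for the low member Loxl4. The ratio of Loxl2 to Loxl4 was 6.50, 8.94, 8.76 and 9.15 in cKO replicates 1 to 4, against 10.2, 10.1, 10.9 and 12.9 in WT replicates 1 to 4. Every cKO library was below every WT library, and the log2 ratio, with 1 FPKM added to each gene, was 0.40 lower in cKO (2.90 ± 0.225 in cKO and 3.30 ± 0.152 in WT, SD, n = 4 each). The two-sided exact permutation test gave p = 0.0286, its lowest possible value. Adjusted for 10 pairs of members, this became 0.286. The ratio of Loxl2 to Loxl1 was 0.349, 0.432, 0.518 and 0.579 in cKO replicates 1 to 4, against 0.539, 0.574, 0.587 and 0.588 in WT replicates 1 to 4 (exact permutation p of the log2 ratio = 0.0857, adjusted 0.286). The ratio of Loxl2 to Loxl3 averaged 2.61 ± 0.201 in cKO and 3.05 ± 0.256 in WT (exact permutation p = 0.0857, adjusted 0.286). The other 7 pairs had an exact p of 0.143 to 0.971. Loxl2 is in 4 of the 10 pairs, and with no p below 0.0286 a difference of Loxl2 alone could not have passed the adjustment, so the adjusted values do not bear on whether Loxl2 changed apart from the other members.

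**Figure D4:**
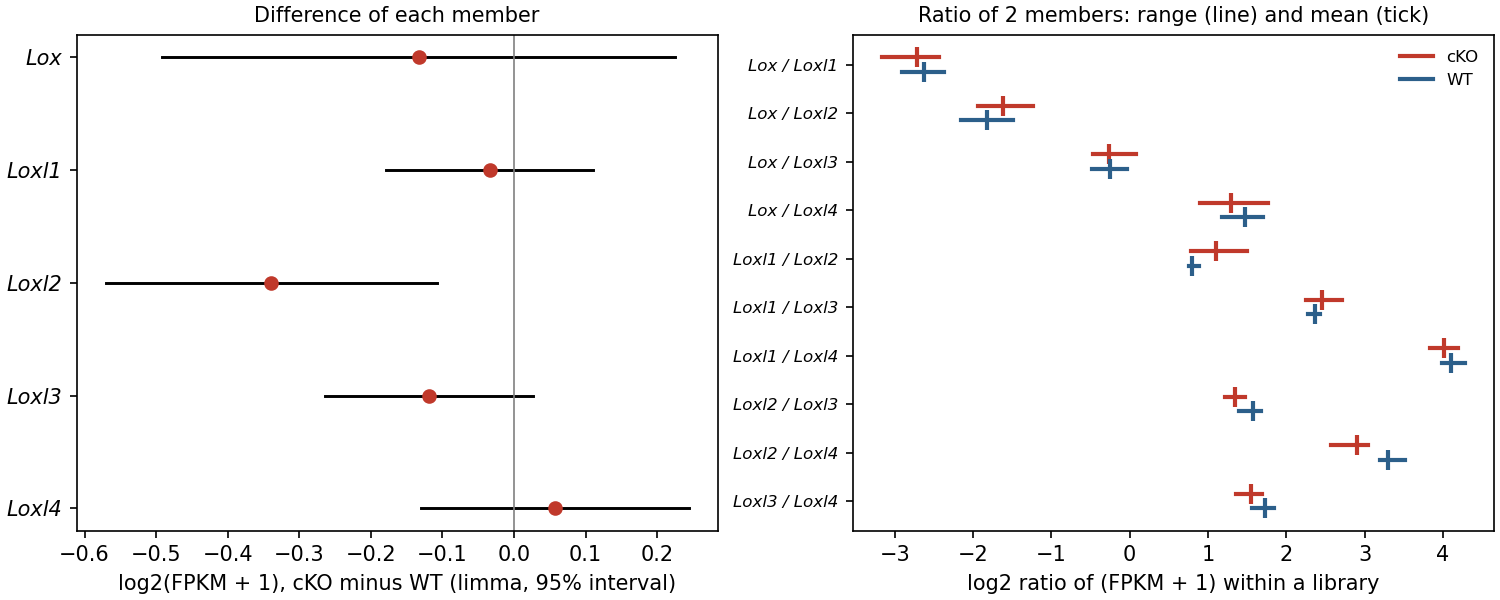
Left, difference in log2(FPKM + 1), cKO minus WT, of each lysyl oxidase gene with its 95% interval from limma; the interval of Loxl2, -0.57 to -0.11, is the one that leaves out 0. Right, log2 ratio of 2 members within a library, with lines for the range and ticks for the mean of the 4 cKO and the 4 WT libraries; Loxl2 / Loxl4 is the pair whose lines do not overlap.

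Across the 8 libraries Loxl2 and Loxl3 had the highest Pearson r among the 10 pairs, while by Spearman rho they tied with Lox and Loxl3. Their log2 levels had a Pearson r of 0.87 (exact permutation p = 0.0112, adjusted over the pairs 0.112) and a Spearman rho of 0.52 (exact permutation p = 0.197, adjusted 0.721). Without cKO replicates 1 and 2, the libraries farthest from the median of Loxl2, r was 0.18, so the relation rests on those libraries. After centring each group on its mean, r was 0.78. Lox and Loxl3 had r = 0.60 (exact permutation p = 0.106, adjusted 0.532; rho 0.52, exact permutation p = 0.197), which fell to -0.15 without cKO replicates 1 and 4. Lox and Loxl1, the pair of the propeptide branch, had r = -0.02 and rho = -0.38 (exact permutation p = 0.965 and 0.360, adjusted 1.00 and 0.90), and r was -0.76 without the same 2 libraries.

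For each member, the 3 genes of most similar pattern were sought among 5624 other genes averaging 10 FPKM or more, by Pearson r of log2 levels over the 8 libraries. With so many genes and 8 libraries high values are selected, and they are given without a test. For Loxl2 they were Grb10 (r = 0.96; 47.9 ± 5.86 FPKM in cKO and 56.0 ± 1.46 FPKM in WT), Slc15a4 (r = 0.95; 10.8 ± 0.90 and 12.4 ± 0.752 FPKM) and Stx2 (r = 0.94; 37.5 ± 2.63 and 41.5 ± 1.76 FPKM). Each of these had a lower mean in cKO, like Loxl2. For Loxl3 they were Sdcbp, Ctsb and Itsn1 (r = 0.95 to 0.96), for Lox Amz2, Ing4 and Pnpla8 (0.96 to 0.99), for Loxl1 Esd, Gnb2l1 and Prr13 (0.91 to 0.96) and for Loxl4 Opa3, Rerg and Tspan6 (0.91 to 0.93). No member appeared among the 3 genes nearest to another member.

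The genes with which the lysyl oxidases work were examined in 7 lists of 67 genes, of which 60 reached a mean FPKM of 1. Of these 0 were called by limma at an adjusted p under 0.05, and 1 was lower and 0 higher at an unadjusted p under 0.05. The mean log2 value was lower in cKO for 44 of the 60 genes, which is 73.3%, against 52.6% of all tested genes. Other settings moved the share of all genes too. With every library rescaled to the same sum, 60.0% of these genes were lower, against 39.4% of all tested genes. With quantile normalization these shares were 61.7% and 54.5%, and without cKO replicate 1 they were 63.3% and 50.3%. Among genes averaging 5 FPKM or more they were 74.5% of 55 listed genes and 56.9% of all tested genes. Listed genes also varied together. Col1a1, Col1a2 and Col3a1 were each higher in cKO replicates 2 and 3 than in cKO replicates 1 and 4. The 60 genes are therefore not separate observations, and the difference between the shares was not tested.

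Among the cross-linked substrates, all 9 tested genes had lower mean log2 values in cKO (0 of 9 at an unadjusted p under 0.05; median -0.05), but 3 of 9 were higher with quantile normalization, 2 of 9 with rescaling to a fixed sum, 1 of 9 with the fibroblast marker scaling and 3 of 9 without cKO replicate 1. Without cKO replicate 4, 5 of 9 were higher and the median was 0.00035, so no direction is given for the substrates. Col3a1, a fibrillar collagen of soft tissue, was at 5286 ± 923 FPKM in cKO and 5546 ± 138 FPKM in WT (SD, n = 4 each), Col1a1 at 2626 ± 477 and 2643 ± 228 FPKM and Col1a2 at 1891 ± 321 and 1935 ± 98.0 FPKM. The chains of basement membrane collagen Col4a1 and Col4a2, substrates of Loxl2, were at 298.6 ± 39.9 and 314 ± 10.1 FPKM, and 139 ± 16.4 and 145 ± 3.52 FPKM. Col5a2, of the fibril-nucleating type V collagen, was at 173 ± 29.0 FPKM in cKO and 185 ± 10.6 FPKM in WT, and had the smallest unadjusted p of the list (0.349). The cKO libraries spread more widely than the WT libraries in each of these 6 collagen genes, so the differences were within the replicate error.

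Of 14 tested genes of the elastic fibre and fibronectin scaffold, on which elastin is laid down and lysyl oxidases are held, 13 had a lower mean log2 value in cKO and 1 was lower at an unadjusted p under 0.05 (median -0.07). With quantile normalization 9 of 14 and with rescaling to a fixed sum 11 of 14 had lower mean values, and 0 were lower at that level with either. The gene with the smallest p was Fbn1, which encodes the main protein of microfibrils, at 375 ± 22.3 FPKM in cKO and 421 ± 38.7 FPKM in WT (log2 difference -0.16, SE 0.07, limma unadjusted p = 0.0495, adjusted p = 0.897). Mfap5, a microfibril-associated glycoprotein, was at 1111 ± 124 FPKM in cKO and 1224 ± 13.1 FPKM in WT, and Efemp2, the fibulin that brings Lox to elastin, at 120.0 ± 5.33 and 127.6 ± 2.06 FPKM. Efemp1 was at 935 ± 19.5 and 1001 ± 59.0 FPKM and the latent TGF-beta binding protein Ltbp4, which takes part in elastic fibre assembly, at 1019 ± 77.0 and 1028 ± 72.6 FPKM. None of these scaffold genes passed over all genes.

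The proteases and enhancers that trim procollagen and the Lox propeptide had 6 of 7 tested genes with a lower mean log2 value and 0 at an unadjusted p under 0.05 (median -0.06; -0.02 and 7 of 7 lower with quantile normalization, -0.03 without cKO replicate 1). Bmp1, the protease that releases active Lox and Loxl1, was at 136 ± 6.91 FPKM in cKO and 142 ± 2.15 FPKM in WT, and its enhancers Pcolce and Pcolce2 at 837 ± 61.5 and 883 ± 32.4 FPKM, and 332 ± 12.3 and 350.4 ± 14.3 FPKM. Of the copper supply genes, 5 of 5 tested had lower mean log2 values, with a median of -0.08 and 0 at an unadjusted p under 0.05. With the epithelium covariate 4 of 5 were lower, with a median of -0.01, and without cKO replicate 1 the median was -0.02. The copper chaperone of the secretory route Atox1 was at 209 ± 26.2 FPKM in cKO and 220.2 ± 22.6 FPKM in WT, the importer Slc31a1 at 22.2 ± 1.4 and 24.1 ± 2.04 FPKM, Slc31a2 at 28.3 ± 2.53 and 29.7 ± 1.45 FPKM, and Ccs, which loads superoxide dismutase, at 30.4 ± 1.44 and 31.6 ± 2.21 FPKM.

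Enzymes that modify or cross-link collagen by other routes showed no common direction, with 3 of 8 lower and 5 of 8 higher in mean log2 value (median 0.01; 7 of 8 higher with rescaling to a fixed sum or the fibroblast marker scaling, 2 of 8 without cKO replicate 3; 0 at an unadjusted p under 0.05). The lysyl hydroxylase Plod2 was at 59.4 ± 8.69 FPKM in cKO and 57.4 ± 6.17 FPKM in WT, the collagen chaperone Serpinh1 at 812 ± 13.9 and 811 ± 86.6 FPKM, and Fkbp10, a foldase that partners the lysyl hydroxylases, at 91.0 ± 11.1 and 89.7 ± 3.88 FPKM. The transglutaminase Tgm2 was at 88.0 ± 2.86 and 87.0 ± 2.35 FPKM, and Pxdn, the peroxidase that cross-links type IV collagen, at 37.9 ± 5.21 and 41.0 ± 1.97 FPKM. Their differences lay within the spread of the replicates.

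Of 16 inducers and partners of the family, 8 had a lower and 8 a higher mean log2 value, with a median of -0.0021 (6 lower and 10 higher with rescaling to a fixed sum) and 0 at an unadjusted p under 0.05. The TGF-beta receptor Tgfbr2 was at 268 ± 21.5 FPKM in cKO and 281 ± 63.3 FPKM in WT, and Ctgf, a target of that pathway, at 144 ± 27.8 and 141 ± 34.4 FPKM. Irf1, an interferon-induced factor reported to act on the Lox promoter, was at 316 ± 10.9 FPKM in cKO and 333 ± 46.3 FPKM in WT. Stat3, which carries the interleukin-10 signal, was at 83.5 ± 2.34 and 88.4 ± 4.92 FPKM, Snai2 at 10.3 ± 1.90 and 8.74 ± 0.671 FPKM, and the hypoxia factor Epas1 at 10.4 ± 1.51 and 9.45 ± 0.514 FPKM. The unrelated copper amine oxidase Aoc3 was at 6.96 ± 1.18 FPKM in cKO and 6.19 ± 0.510 FPKM in WT, while Aoc1 (1.05 ± 1.11 and 0.386 ± 0.180 FPKM) and Aoc2 (0.428 ± 0.0990 and 0.646 ± 0.188 FPKM) were too low to be tested.

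**Figure D5:**
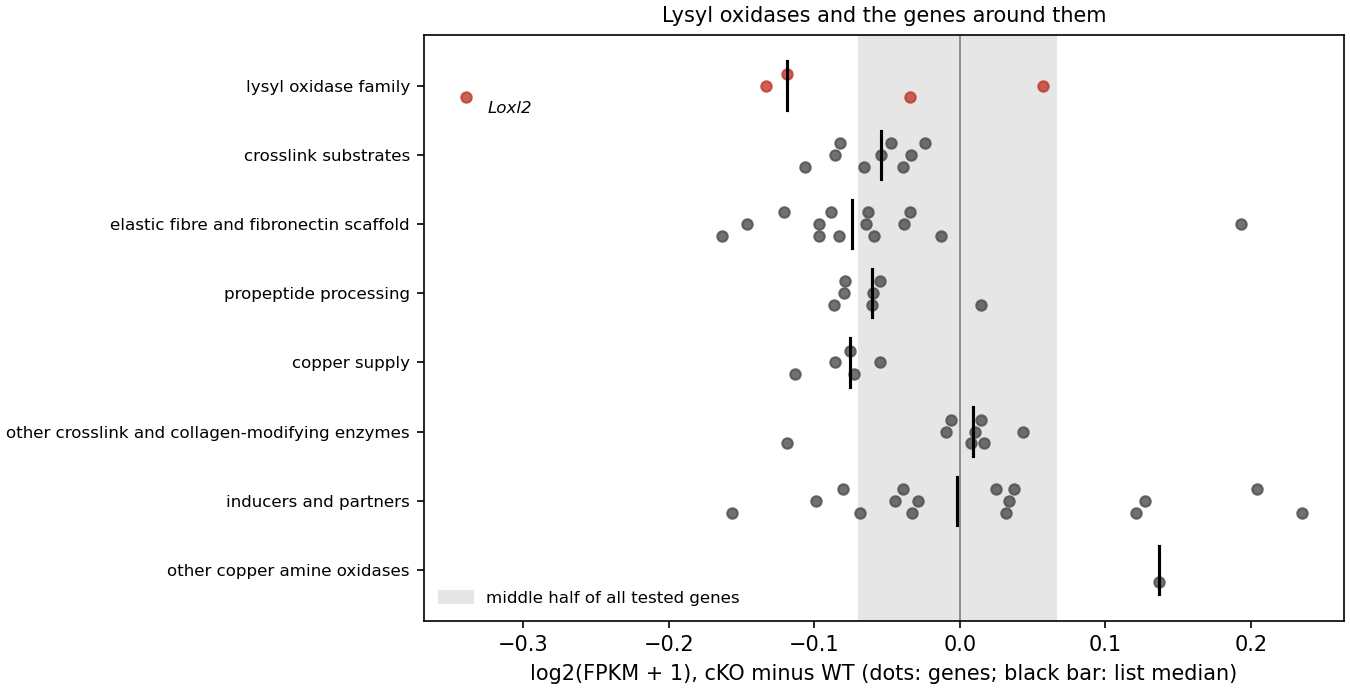
Difference in log2(FPKM + 1), cKO minus WT (horizontal axis), of the 5 lysyl oxidases (top row) and of the 60 tested genes in 7 lists around them; black bars are list medians and the grey band is the middle 50% of all 11506 tested genes. Loxl2 at -0.34 lies further from 0 than any of the 60 genes, whose values run from -0.16 to 0.23.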

How the data were processed

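RNA of sorted stromal cells was turned into full-length cDNA (SMART-Seq HT) and Nextera XT libraries, per the labels' protocols. The authors deposited FPKM per gene for each library. The submitters' processing notes name build mm10 and Cufflinks 2.2.1 with Cuffdiff, TopHat2 2.1.1, SAMtools 0.1.18 and Bowtie2 2.3.5.1; settings and annotation: not given in the sources used here. A gene's FPKM falls when a few other genes take more of a library.

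Whole-fragment steps among low values (mean FPKM under 0.3) gave relative depths of 0.857 to 1.08, but 57.9% to 65.3% of ratios lay on a step (tolerance 0.002, log2), so no count test was run. About 17700000 fragments per library were estimated from 63 genes with a single transcript. At that depth the lowest library held roughly 480 fragments of Loxl4 and 7700 of Loxl1, a counting error near 4.6% and 1.1%. Intervals and SDs are between mice.

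Log2(FPKM + 1) of the 11506 genes averaging 1 FPKM or more was fitted in limma 3.58.1 (R 4.3.3, eBayes with trend, 2 groups, Benjamini-Hochberg adjustment over all genes, threshold 0.05). The fit was also run on simulated data with independent noise for each gene. Those data held no shifts shared by a library, such as admixed cells, so they do not test the fit under admixture. The log2(FPKM + 1) scale understates changes of low genes. Single values were compared by two-sided exact permutation tests (70 arrangements) in Python 3.11.15 with scipy 1.17.1. Alternatives were a pseudocount of 0.1, all genes unfiltered, genes averaging 5 FPKM or more, 3 scalings, no trend, the replicate number as a block, each library left out, and the 2 settings named as added. The members and lists were chosen with earlier results of these data known. Named genes were the 5 members and, per member, the 3 genes of most similar pattern. In each list they were the 3 of lowest unadjusted p and the 3 of highest level. Leading markers of cell types were also named. Epcam, Ptprc, Pecam1, further adventitial, lymphatic and lymphoid markers and the genes overlapping members were added afterwards. Ctgf is listed under its older symbol, and 1 marker symbol, Trbc2, was not matched.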

Additional observations from a re-analysis of the deposited data

Results flagged for a closer look

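None of the 5 lysyl oxidases had a library standing apart from the other 3 of its group by Dixon's gap test at its 95% critical value. Among the 32 named genes of the surrounding lists and the members, 74 groups of 4 were examined and 8 held such a library, where chance gives about 1 in 20. In the cKO group the separate value was that of replicate 1 for Efemp1 (906 FPKM), Irf1 (332 FPKM) and Aoc2 (0.575 FPKM), that of replicate 2 for Pcolce2 (350.0 FPKM) and that of replicate 3 for Bmp1 (146 FPKM) and Plod2 (72.4 FPKM). In the WT group it was replicate 1 for Col3a1 (5750 FPKM) and replicate 4 for Efemp2 (124 FPKM).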

How the results depend on the processing

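No member was called under any of the 18 alternatives. Loxl2 and Loxl3 were lower in cKO in all 18, Loxl2 with a log2 difference of -0.40 to -0.21, an unadjusted p of 0.0017 to 0.0251 and an adjusted p of 0.629 to 1.00. Loxl1 turned to 0.0124 with quantile normalization and 0.00105 with rescaling to a fixed sum, and ran from -0.0682 to 0.0262 with single libraries left out. With single libraries left out Lox ran from -0.24 to -0.02, Loxl3 from -0.17 to -0.07 and Loxl4 from 0.01 to 0.11. The number of genes called over the whole table ran from 1 to 4 with single libraries left out (4 without cKO replicate 1, 2 without cKO replicate 2, 3 without WT replicate 3) and was 1 otherwise. The median of the copper supply list was -0.0142 with the epithelium covariate and ran from -0.0975 to -0.0250 with single libraries left out. With single libraries left out the difference in log2 ratio ran from -0.197 to 0.0495 for Lox to Loxl1, from -0.130 to 0.0569 for Lox to Loxl3 and from -0.00051 to 0.153 for Loxl1 to Loxl3. After centring within groups the correlation of Loxl1 with Loxl4 was 0.0599, of Loxl2 with Loxl4 0.145 and of Loxl3 with Loxl4 0.156, each below 0 before; the cause was not tested. Same-numbered libraries shared only a number (correlation of deviations 0.018 to 0.091). With the replicate block the log2 difference of Loxl2 was -0.34 (SE 0.07, unadjusted p = 0.0017, limma adjusted p = 0.898) and 1 gene was called. With 4 mice a group, the intervals of the 5 members limit what can be said, more than depth does.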
